A study of Homo sapiens with 26 samples.

Results

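The SLC25 family was described in LOCL-TL data from HEK293T, a line of human embryonic kidney origin. Its members were taken by symbol, as genes named SLC25A and a number, which gave 48 genes of the 60663 in the RNA-seq files. In ribosome profiling 44 of them had an entry of their own among 58849 entries. The other 4 (SLC25A10, SLC25A32, SLC25A48 and SLC25A51) were counted only together with overlapping genes and have no footprint value here. LOCL-TL labels ribosomes where they work: the large-subunit protein RPL29 has an Avi tag at its own locus, and LOV-BirA, a biotin ligase switched on by blue light, adds biotin to tagged ribosomes nearby. The tagged RPL29 line is 1 clone into which LOV-BirA was brought by lentivirus.

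In ribosome profiling LOV-BirA was fused to Sec61β for the ER, fused to the TMD of OMP25 for the outer mitochondrial membrane (OMM), or left free in the cytosol, with 2 replicates per location. Ribosomes caught on streptavidin (the pulldown) and the total input of the same lysate were sequenced for each replicate, which made 12 libraries, from cells treated with cycloheximide (CHX). In RNA-seq, whole transcripts were pulled down with the OMM ligase from wild-type cells with a negative control gRNA, from AKAP1 null cells and from LARP4 null cells, 2 replicates each, and from cells without CHX, 1 replicate. Each null genotype is 1 monoclonal line, so clone and genotype cannot be told apart, and CHX treatment of the null lines is taken from the general protocol. Nothing in the labels says that replicates were separate cultures, so p-values measure the spread between these samples.

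Mitochondrial carriers are proteins of the inner mitochondrial membrane that exchange metabolites between cytosol and matrix. They are built from 3 repeats of a pair of membrane helices, each repeat with a signature of a proline, any residue, an acidic residue, 2 further residues and a basic residue. Most are made without a cleavable presequence, leave the cytosol bound to chaperones, enter through TOMM70 and cross the intermembrane space with small TIM proteins to the TIM22 insertase. SLC25A12, SLC25A13 and SLC25A24 carry calcium-binding domains ahead of the carrier fold and were set apart. SLC25A17 sits in the peroxisomal membrane and SLC25A46 in the OMM, so they share the family name but not the address.

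Annotated proteins of the 48 genes ran from 274 to 678 residues with a median of 314, and 42 of them lay between 200 and 400 residues. The position at which the carrier fold starts differs between members. The sequences below show the first signature in coding order, in capitals, with 6 bases of coding sequence on each side (GENCODE 44 transcripts, GRCh38), for carriers with the fold at the start and for SLC25A13 and SLC25A24 of those set apart.
SLC25A5 (chrX:119468591-119468620, plus strand): gtagcgCCCATCGAGCGGGTCAAGctgctg
SLC25A4 (chr4:185143448-185143477, plus strand): gtcgccCCCATCGAGAGGGTCAAActgctg
SLC25A1 (chr22:19178179-19178208, minus strand): accttcCCCACCGAGTACGTGAAGacgcag
SLC25A13 (chr7:96184389-96184418, minus strand): gtgtatCCTATCGATCTTGTAAAAactcga
SLC25A24 (chr1:108157468-108157497, minus strand): actgccCCTTTGGACCGTCTGAAAatcatg
All 5 stretches are exonic and coding. The signature began at residue 28 in SLC25A4 and SLC25A5, both ADP/ATP carriers, and at residue 45 in SLC25A1, the citrate carrier. In SLC25A13, an aspartate/glutamate carrier like SLC25A12, it began at residue 348, and in SLC25A24, an ATP-Mg/phosphate carrier, at residue 214. SLC25A23 and SLC25A25, relatives of SLC25A24 with the same kind of calcium-binding domain, had it at residues 172 and 252. By a rule that asks for another signature at about the distance of 1 repeat, a first signature was found in 35 of the 48 proteins.

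Coding totals ran from 1025114 to 19539527 estimated footprint counts per library, and the OMM pulldowns were the shallowest. RNA-seq totals ran from 38347615 to 100840544 counts. The members took 0.215% to 0.378% of coding footprints and 0.255% to 0.302% of RNA-seq counts, so their precision is set by the count of each gene and the 2 replicates. The headers of the cytosol replicate 1 files name different sequencing folders for its pulldown and its total input. AKAP1 mRNA was at 115 and 119 CPM in wild-type total inputs and at 32.2 and 20.3 CPM in AKAP1 null ones. LARP4 mRNA was at 225 and 231 CPM in wild type and at 79.3 and 74.0 CPM in LARP4 null cells. Both fell in their own line. The kidney and neuronal genes PAX2, LHX1, NEFM and NEFL, which HEK293 cells express, were detected in every total input, while CD3E and HBB, of T cells and red blood cells, were at 0 counts in all of them. The remaining markers of other cell types were low but mostly not absent, at no more than 0.484 CPM. GFAP had 8 to 45 counts, PECAM1 3 to 9, ALB 1 to 8 and PTPRC 0 to 2.

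The ADP/ATP carrier SLC25A5 was the member with the highest footprint density. Its median over the 6 total inputs was 1560 RPKM (range 1050 to 1980), followed by SLC25A6, another ADP/ATP carrier, with 427 RPKM (232 to 606), and SLC25A3, the phosphate carrier, with 366 RPKM (324 to 490). The ranges of SLC25A6 and SLC25A3 overlap, so their order is not resolved. SLC25A11, the oxoglutarate carrier, was next with 83.5 RPKM (72.1 to 118), a range that overlaps those of SLC25A4 (77.9, 50.7 to 97.0) and SLC25A1 (73.5, 55.2 to 94.7). The deposited densities divide by positions that map uniquely, and for SLC25A5 these were 221 of 894 coding bases, against 622 of 894 in SLC25A6 and 621 of 894 in SLC25A4. Values of these close paralogs are therefore uncertain. At the other end, 8 members had a median of 0 RPKM, among them SLC25A31, the ADP/ATP carrier of germ cells.

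Enrichment is the log2 ratio of a gene's share of counts in the pulldown to its share in the total input. Members with at least 64 coding footprints in both total inputs of a location were tested, which left 22 of 44 at the OMM. Just inside this minimum, in the poorer total input, were SLC25A38 with 80.3 footprints and SLC25A12 with 86.5, and just outside were SLC25A20 with 60.1 and SLC25A42 with 56.9.

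At the OMM most carriers stood close to their share of the total input. SLC25A1 and SLC25A17 were enriched and 5 members were depleted (SLC25A21, SLC25A13, SLC25A25, SLC25A28 and SLC25A46), among 22 tested. Across all 6728 genes tested, 17.0% were enriched and 46.0% depleted. The median of the carriers was 0.07 and that of all genes −0.38, which puts the carriers 0.45 above the middle of all genes on the log2 scale. These counts depend on where zero is set: with TMM, which centres most genes on zero, 12 members were enriched and 2 depleted, beside 25.8% and 24.4% of all genes.

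SLC25A1, which exports citrate for lipid synthesis, held 95.6 and 75.3 CPM of footprints in the OMM total inputs and 141 and 119 CPM in the pulldowns. Both pulldowns stood above both total inputs. Its log2 enrichment was 0.56 and 0.66, with a fitted value of 0.61 ± 0.12 (SE, n = 2) and an adjusted p of 3.77e-04 in edgeR's quasi-likelihood test. SLC25A17 reached 0.57 and 0.69, with a fitted value of 0.63 ± 0.17 and an adjusted p of 0.00404. Only 210 of its 921 coding bases were counted, and over all exons its value was −0.03. SLC25A14, an uncoupling-protein-like carrier, followed at 0.39 ± 0.19 (adjusted p = 0.08).

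SLC25A21, the oxodicarboxylate carrier, had the lowest fitted value, −0.98 ± 0.25 (adjusted p = 0.00266). Its replicates differed more than those of any other member: footprints fell from 27.1 CPM in the total input to 7.80 CPM in the pulldown in replicate 1, and from 28.6 to 18 CPM in replicate 2. SLC25A25 also differed between replicates, at −0.07 and −1.10, and its fitted value of −0.65 ± 0.27 barely passed the test (adjusted p = 0.0461). SLC25A28, a mitoferrin that carries iron, was at −0.52 ± 0.21 (adjusted p = 0.0343), and SLC25A46 at −0.40 ± 0.15 (adjusted p = 0.0284).

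The 4 members with the highest median footprint density did not pass the test. SLC25A5 was at −0.06 and −0.10, SLC25A6 at 0.07 and 0.21, SLC25A3 at 0.04 and −0.05, and SLC25A11 at 0.07 and 0.22. Their SE was 0.09 to 0.10, so that an enrichment as large as that of SLC25A1 lies outside 3 SE of each. With TMM all 4 were above zero and called, at 0.24, 0.46, 0.31 and 0.47.

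The 3 carriers with long N-terminal domains did not share a value at the OMM. SLC25A13 fell from 256.1 and 265 CPM in the total inputs to 141 and 165 CPM in the pulldowns, and its fitted value of −0.75 ± 0.11 had the lowest adjusted p of the family, 1.28e-05. It also stayed depleted with TMM, at −0.43. SLC25A24 was at −0.22 and −0.43, with a fitted value of −0.36 ± 0.16 (adjusted p = 0.0541). SLC25A12 was at 0.30 and 0.15, with a fitted value of 0.19 ± 0.23 (adjusted p = 0.473). Only 540 of its 2034 coding bases were counted, and over all exons it turned to −0.40 (adjusted p = 0.0258). The median of the 3 was −0.36, against 0.08 for the 19 others tested. SLC25A23, at 0.38 ± 0.17 (adjusted p = 0.0657), lay above zero although it too has a long N-terminal domain.

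**Figure D1:**
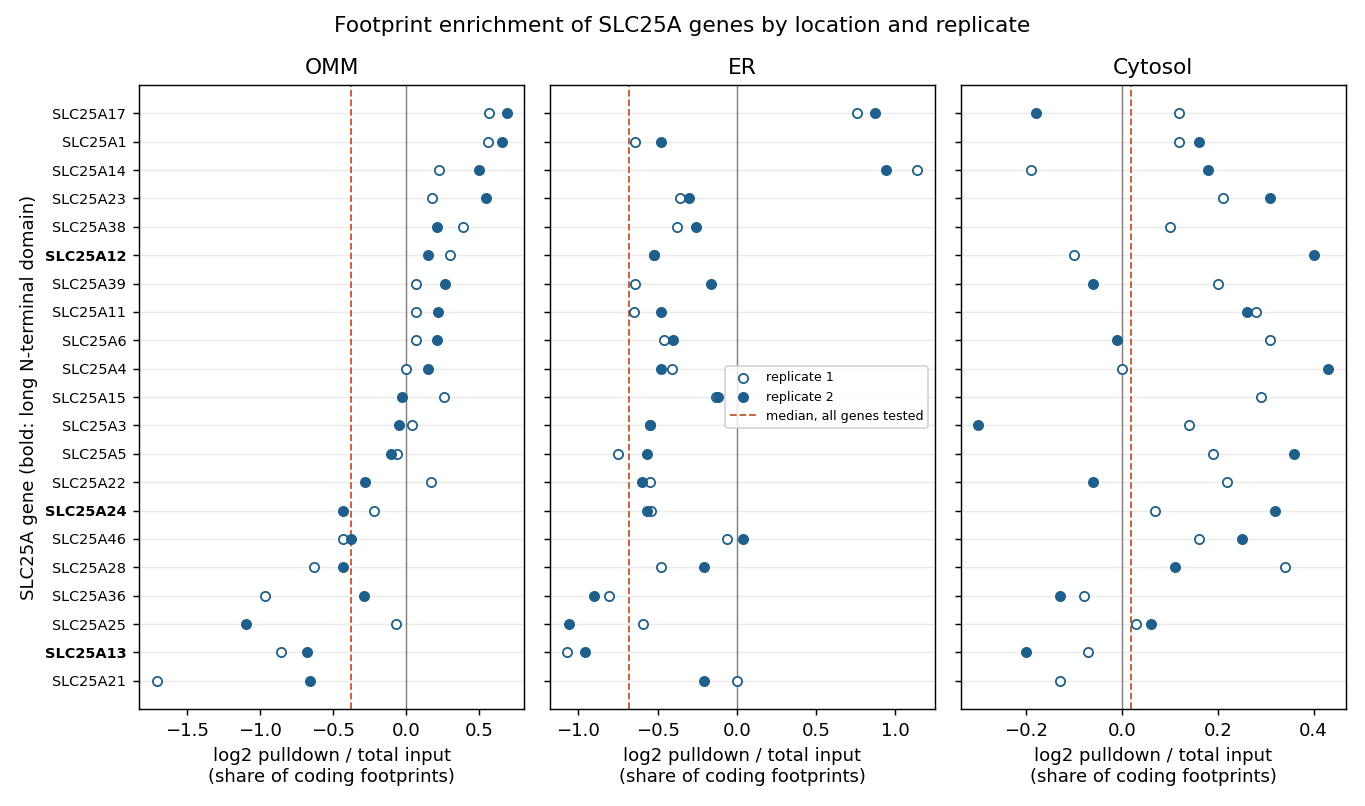
Log2 pulldown over total input (x axis, share of coding footprints) of 21 of the 22 members tested at the OMM, in OMM, ER and cytosol libraries, open circles for replicate 1 and filled for replicate 2, with dashed lines at the median of all genes tested. SLC25A17 and SLC25A14 stand apart to the right at the ER (0.76 to 1.14), SLC25A21 and SLC25A25 have widely spaced OMM replicates, and a missing circle is a member under the minimum in that total input.

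At the ER most carriers were depleted. Of 25 members tested, 15 were depleted and 2 enriched, SLC25A14 and SLC25A17, beside 72.0% and 19.8% of all 7381 genes. SLC25A26 and SLC25A44 were under the minimum in replicate 2 only and were not tested. Unscaled footprints of SLC25A26 were 71.8 and 56.0 in total inputs and 345.3 and 292.5 in pulldowns. Those of SLC25A44 were 154.0 and 50.0, and 518.2 and 356.0. With a minimum of 10, 5 of 34 members were enriched and 17 depleted, beside 22.3% and 63.2% of all genes. The highest value was then 1.58. All genes had a median of −0.68 and the carriers one of −0.43, so the carriers were 0.25 above the middle of all genes. With TMM 6 members were enriched and 1, SLC25A13, was depleted (29.2% and 25.4% of all genes). With the denominators of the deposited RPKM, all reads on annotated transcripts, 3 were enriched and 7 depleted, beside 21.8% and 55.1% of all genes.

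SLC25A14 rose from 29.3 and 34.3 CPM in the ER total inputs to 64.5 and 66.2 CPM in the pulldowns, a log2 enrichment of 1.05 ± 0.14 (adjusted p = 1.14e-06). SLC25A17 went from 33.4 and 31.2 CPM to 56.6 and 57.1 CPM, or 0.82 ± 0.13 (adjusted p = 1.39e-05). In both genes the groups did not overlap, and both were also called with TMM, at 1.69 and 1.46. Next from the top was SLC25A46, at −0.01 ± 0.12 (adjusted p = 0.921), which TMM put at 0.63 (adjusted p = 1.71e-04). The lowest were SLC25A13 at −1.02 ± 0.09 (adjusted p = 1.62e-08), SLC25A36, a pyrimidine nucleotide carrier, at −0.85 ± 0.16, and SLC25A25 at −0.78 ± 0.19. SLC25A12 and SLC25A24 were depleted at −0.52 ± 0.16 and −0.56 ± 0.12. The ADP/ATP and phosphate carriers were depleted as well, SLC25A5 at −0.66, SLC25A3 at −0.55, SLC25A4 at −0.45 and SLC25A6 at −0.43. Of the nucleotide and phosphate carriers 8 of 9 were depleted, all but SLC25A33. All of these except SLC25A13 lost the call with TMM. Solute carriers of other families, most of which are made at the ER, stood at a median of 1.84, with 89 of 90 enriched.

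In the cytosol no member passed the test in edgeR or in DESeq2. Of 21 tested, 2 were higher and 1 lower at an unadjusted p below 0.05, beside 21.0% of all genes. At an adjusted p below 0.05, 2.02% of 7162 genes were enriched and 5.96% depleted, and with TMM, which called no member either, 1.94% and 5.75%. The highest value was that of SLC25A20, the carnitine/acylcarnitine carrier (0.31, with 0.63 and −0.13 in the replicates), and the median of the family was 0.14 beside 0.02 for all genes. SLC25A5 at 0.28 and SLC25A11 at 0.27 followed from the top, and SLC25A13 at −0.13 and SLC25A36 at −0.11 were among the lower values. With the RPKM denominators, which place all genes at a median of 0.25, 10 members were called enriched, or 47.6%, beside 33.2% of all genes. Replicates hardly agreed in their order of members (Pearson r = 0.18 and Spearman rho = −0.009 across 21 genes that share libraries), against 0.699 and 0.825 across 22 at the OMM and 0.905 and 0.784 across 25 at the ER.

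Set directly against the ER, 9 of 22 members were higher at the OMM and 2 were lower, beside 31.1% and 18.6% of 6675 genes. SLC25A1 had the largest difference, 1.18 ± 0.17 (adjusted p = 7.52e-06). SLC25A11, SLC25A12 and SLC25A23 each differed by 0.71, and SLC25A3, SLC25A4, SLC25A5 and SLC25A6 by 0.54, 0.52, 0.58 and 0.57, with SLC25A39, a glutathione carrier, at 0.59. The differences of SLC25A13, 0.26 ± 0.14, and SLC25A24, 0.20 ± 0.20, were not called. SLC25A21, −0.89 ± 0.30 (adjusted p = 0.0203), and SLC25A14, −0.66 ± 0.23 (adjusted p = 0.0229), were lower at the OMM, and SLC25A46 had −0.39 ± 0.19 (adjusted p = 0.0995). The median difference of all genes was 0.28 and that of the members 0.51. With TMM, 2 were higher (SLC25A1 at 0.85 and SLC25A11 at 0.39) and 3 lower (SLC25A14, SLC25A21 and SLC25A46), beside 14.2% and 22.7% of all genes.

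Against the cytosol, 3 of 19 members were higher at the OMM and 5 lower, beside 16.6% and 39.7% of 6465 genes. Among the higher ones were SLC25A17 at 0.64 ± 0.22 and SLC25A1 at 0.47 ± 0.16. The lowest were SLC25A28 at −0.76 ± 0.25 (adjusted p = 0.0158), SLC25A25 at −0.70 ± 0.33, which was not called (adjusted p = 0.0787), and SLC25A13 at −0.63 ± 0.15 (adjusted p = 0.00154). SLC25A24, SLC25A46 and SLC25A5 were called lower at −0.55, −0.60 and −0.36, while SLC25A12 was at 0.07 ± 0.27. The OMM libraries are shared with the comparison against the ER. With TMM 5 members were higher (among them SLC25A1, SLC25A3, SLC25A14 and SLC25A17) and none lower, beside 24.5% and 20.8% of all genes.

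The carriers were then set beside other nuclear-encoded mitochondrial genes by protein length. Of the 22 members tested at the OMM, 16 encode proteins of 200 to 400 residues and 6 longer ones (SLC25A12, SLC25A13, SLC25A23, SLC25A24, SLC25A25 and SLC25A46). The 16 had a median of 0.11, beside 0.07 for other mitochondrial genes of that length. Of the 16, 12.5% were enriched and 12.5% depleted, beside 28.5% and 11.3% of those genes. The 6 longer members had a median of −0.38 with none enriched and 3 depleted. All 6728 genes had the same median, with 17.0% enriched and 46.0% depleted. Of 236 other mitochondrial genes for proteins over 400 residues 48.3% passed as enriched and 14.8% as depleted, and their median was 0.34. The 171 genes for proteins under 200 residues, a length no member has, had a median of 0.95. These shares are a description and were not tested. At the ER the 19 members of 200 to 400 residues had a median of −0.36 and the 270 other mitochondrial genes of that length −0.49.

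Genes of the route by which carriers enter mitochondria went both ways. Among 6 tested at the OMM, the small TIM genes TIMM10 and TIMM13, whose products guide carriers through the intermembrane space, were enriched at 1.59 ± 0.11 and 1.22 ± 0.09, and TIMM8B was at −0.22 ± 0.20. TOMM70, the receptor for carriers, was depleted at −0.58 ± 0.10, and the insertase genes TIMM22 and TIMM29 were at 0.13 and −0.10 and not called. MTCH2, a carrier-fold protein of the OMM under another symbol, was enriched at 0.44 ± 0.10, while its relative MTCH1 was at 0.15 and the uncoupling protein gene UCP2 at −0.31, neither called.

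**Figure D2:**
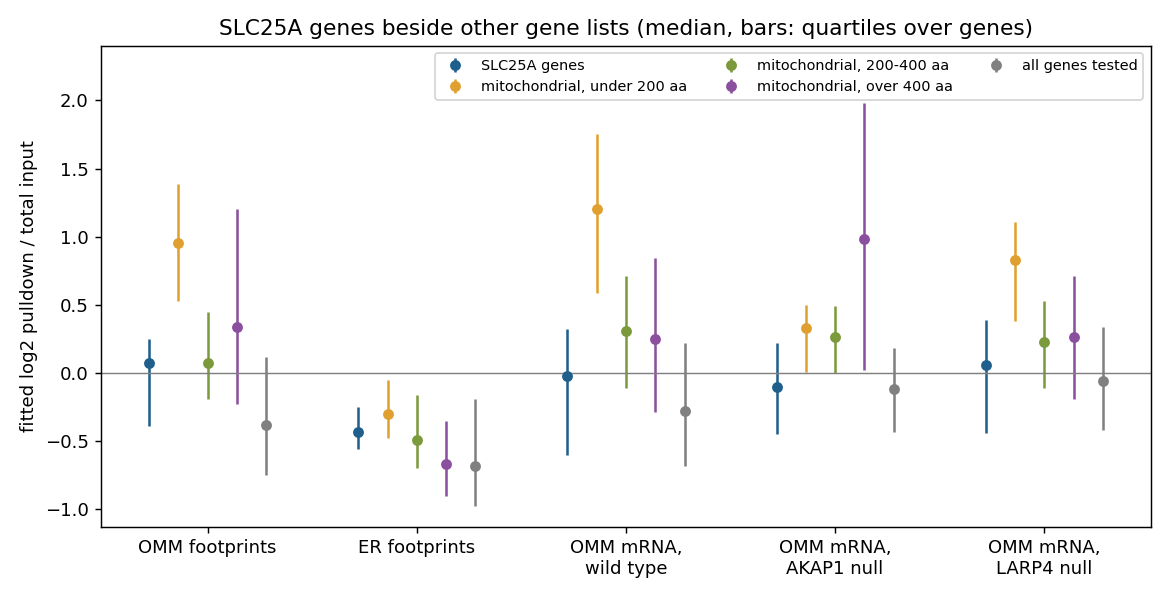
Median fitted log2 pulldown over total input (y axis) of the SLC25A genes, of other mitochondrial genes in 3 protein length classes and of all genes tested, with bars for the quartiles over genes, for OMM and ER footprints and for OMM mRNA in 3 genotypes. The carriers (blue) lie near 0 in OMM libraries, with medians from −0.10 to 0.07, and stay below mitochondrial genes for short proteins in each set shown.

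Whole mRNA pulled down at the OMM allowed more members to be tested. A mean of 64 counts over the 12 libraries with CHX was reached by 41 of 48, and the remaining 7 had mean counts of at most 6.2. In wild-type cells 11 members were enriched and 16 depleted, beside 20.2% and 45.6% of 13856 genes. The median was −0.02 for the members and −0.28 for all genes. For proteins of 200 to 400 residues it was 0.02 over 35 members and 0.31 over 366 other mitochondrial genes. With TMM 17 were enriched and 9 depleted, beside 31.0% and 27.8% of all genes. Replicates agreed closely (r = 0.979 and rho = 0.966 across 41 genes), and 37 members had the same sign in both, 17 above and 20 below zero.

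SLC25A1 had the highest wild-type value. It held 97.5 and 108 CPM in the total inputs and 179 and 220 CPM in the pulldowns, a log2 enrichment of 0.95 ± 0.10 (adjusted p = 1.11e-04). SLC25A26, the S-adenosylmethionine carrier, followed at 0.84 ± 0.09 and SLC25A48, whose substrate is unsettled, at 0.83 ± 0.15. The lowest was SLC25A36, which fell from 150 and 121 CPM in the total inputs to 48 and 41.1 CPM in the pulldowns, −1.60 ± 0.11 (adjusted p = 1.74e-05). SLC25A37, a mitoferrin, was at −1.07 ± 0.23 and SLC25A40, a glutathione carrier, at −0.96 ± 0.13. Close relatives could lie far apart: SLC25A39 was at 0.78 ± 0.09, opposite to SLC25A40, and SLC25A33 at 0.45 ± 0.11, opposite to SLC25A36.

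By substrate, members went both ways in every class of inner-membrane carriers when library totals set the scale. On that scale 20.2% of all genes were enriched and 45.6% depleted, with a median of −0.28. On other scales depleted calls were fewer, 9 of 41 members with TMM and 8 in DESeq2, beside 27.8% and 26.6% of all genes. Of 4 carboxylate and keto acid carriers SLC25A1 and SLC25A11 (0.66) were enriched and SLC25A21 (−0.56) was depleted. SLC25A21 lost that call with TMM and in DESeq2, which left no depleted member in its class. Of 9 nucleotide and phosphate carriers SLC25A4 (0.68), SLC25A33 and SLC25A6 (0.32) were enriched and SLC25A24 and SLC25A36 depleted. Of 10 cofactor and metal carriers 3 were enriched (among them SLC25A26 and SLC25A39) and 4 depleted (SLC25A37, SLC25A40, SLC25A16 at −0.62 and SLC25A51 at −0.50). Of 8 amino acid and acylcarnitine carriers SLC25A38 (0.44) was enriched and 5 were depleted, SLC25A12, SLC25A13, SLC25A44, SLC25A29 and SLC25A15. Of 8 uncoupling-protein-like or unassigned members SLC25A14 (0.73) and SLC25A48 were enriched and SLC25A30, SLC25A27 and SLC25A53 depleted. SLC25A46 (−0.94) was depleted, and the peroxisomal SLC25A17 was at 0.17 (adjusted p = 0.16).

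All 3 carriers with long N-terminal domains were depleted in wild type. SLC25A12 was at −0.60 in both replicates, SLC25A13 at −0.46 and −0.50, and SLC25A24 at −0.63 and −0.67. Their fitted values of −0.60 ± 0.09, −0.48 ± 0.09 and −0.65 ± 0.08 had adjusted p-values of 4.74e-04, 0.0013 and 2.04e-04. The 38 other members had a median of 0.00, with 13 depleted. SLC25A23 at −0.25 ± 0.16 and SLC25A25 at −0.02 ± 0.09 were not called. With TMM the median of all genes moved from −0.28 to 0.01, so relative to the middle of all genes the 3 carriers had a median of −0.32. SLC25A12 and SLC25A24 kept their calls with TMM, while SLC25A13 lost it there (−0.18, adjusted p = 0.158) and in DESeq2 (−0.19, adjusted p = 0.155).

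Among the 22 members with both readouts, OMM footprint and wild-type mRNA enrichment were correlated (Pearson r = 0.632, Spearman rho = 0.606), against r = 0.776 and rho = 0.724 across 6722 genes. Genes are not independent replicates. With library totals as scale, SLC25A1 was called enriched and SLC25A13, SLC25A21 and SLC25A46 depleted in both, though in mRNA SLC25A13 and SLC25A21 lost the call with TMM (−0.18 and −0.26, adjusted p = 0.158 and 0.143) and in DESeq2. In footprints depleted calls were fewer too. Only 2 of the 22 members were depleted with TMM and 1 in DESeq2, beside 24.4% and 18.8% of all genes. SLC25A12 had the signs apart, 0.19 for footprints and −0.60 for mRNA, and SLC25A17, with few of its coding bases counted, was called in footprints and not in mRNA, where TMM (0.47, adjusted p = 0.00801) and DESeq2 called it too. Over 41 members mRNA enrichment went with the length of the gene's exon model (r = −0.523, rho = −0.519), as it did over all 13856 genes (r = −0.403, rho = −0.508), and less with protein length (r = −0.239, rho = −0.225).

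**Figure D3:**
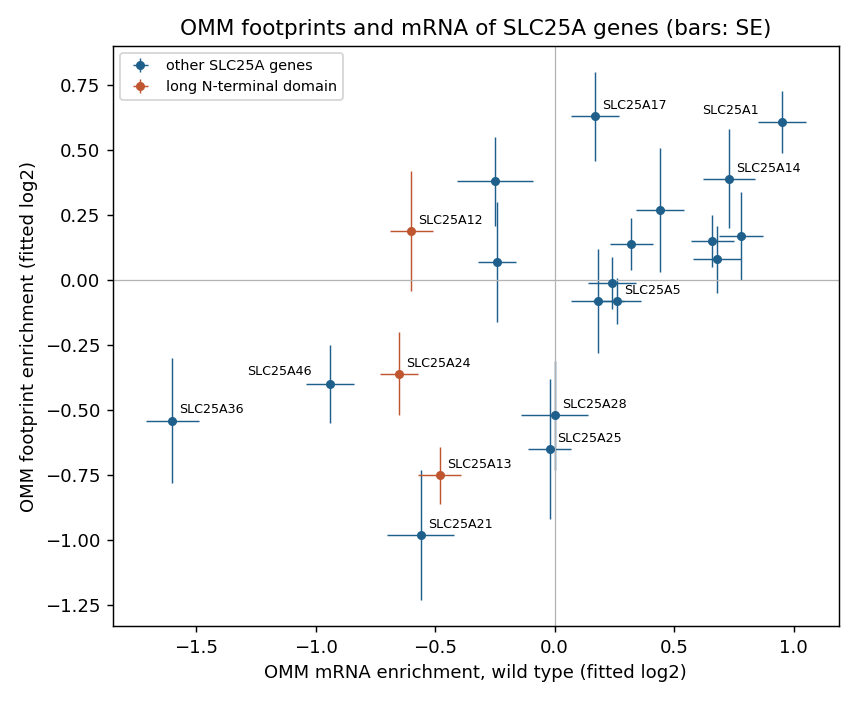
Fitted log2 OMM footprint enrichment (y axis) against fitted log2 OMM mRNA enrichment in wild type (x axis) for 21 of the 22 members, with bars of 1 SE and the 3 carriers with long N-terminal domains in orange. SLC25A1 lies at the upper right (0.95 and 0.61), and SLC25A36, SLC25A46, SLC25A24, SLC25A13 and SLC25A21 at the lower left.

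AKAP1 is an OMM protein that binds mRNA. Of 41 members 4 were enriched in AKAP1 null cells (SLC25A4 at 0.59, SLC25A1 at 0.38, SLC25A11 at 0.33 and SLC25A14 at 0.31), and 13 were depleted, beside 13.9% and 28.1% of all genes. All 4 and 12 of the 13 were called the same way in wild type. How many calls were shared over all genes was not counted, so nothing particular to carriers can be read from this. The lowest were SLC25A36 at −1.13, SLC25A37 at −0.84 and SLC25A51, an NAD carrier, at −0.68. SLC25A12 (−0.47) and SLC25A13 (−0.27) were depleted and SLC25A24 was at −0.10 (adjusted p = 0.348), but SLC25A13 lost the call with TMM (−0.15, adjusted p = 0.288) and in DESeq2 (−0.13, adjusted p = 0.402). Leaving out either AKAP1 null replicate gave no enriched member and 2 to 4 depleted ones, beside 3.46% to 3.72% and 5.77% to 8.67% of all genes. With TMM 9 were enriched and 8 depleted (20.0% and 20.7% of all genes).

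Tested as a difference of enrichment, AKAP1 null minus wild type, 3 members were lower and 2 higher. All genes gave 7.96% lower and 6.52% higher, so the shares of the carriers, 7.32% and 4.88%, were near the background. SLC25A39 went from 0.78 and 0.79 in wild type to −0.17 and −0.10 in AKAP1 null cells, a difference of −0.92 ± 0.13 (adjusted p = 0.00236). SLC25A26 went from 0.81 and 0.87 to −0.06 and −0.03, a difference of −0.89 ± 0.12 (adjusted p = 0.00249). SLC25A1 went from 0.88 and 1.02 to 0.45 and 0.31, a difference of −0.57 ± 0.15 (adjusted p = 0.0372). In the other direction SLC25A46 rose from −0.94 in both replicates to 0.01 and −0.29, a difference of 0.80 ± 0.14 (adjusted p = 0.0064), and SLC25A24 from −0.63 and −0.67 to −0.05 and −0.15, 0.55 ± 0.12 (adjusted p = 0.0165). In these 5 genes no AKAP1 null replicate overlapped a wild-type one, which was also so in most members that were not called: 31.7% of the 41 lay wholly higher and 34.1% wholly lower, beside 53.4% and 22.3% of all genes. SLC25A48, at −0.60 ± 0.21 (adjusted p = 0.0905), and SLC25A40, at 0.49 ± 0.19 (adjusted p = 0.108), were the next at either end that missed the test.

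In the pulldowns SLC25A39 held 149 and 155 CPM in wild type and 93.0 and 81.5 CPM in AKAP1 null cells, while its total inputs held 87.1 and 89.8 CPM against 105 and 87.3 CPM. SLC25A26 had uneven total inputs in wild type, 18.3 and 32.5 CPM, and 19.6 and 17.4 CPM in AKAP1 null cells. SLC25A46 held 52.1 and 43.9 CPM in wild-type pulldowns against 70.1 and 71.0 CPM in AKAP1 null ones. Its total inputs of 100.3 and 84.1 CPM overlapped those of 69.5 and 87.0 CPM, with a fitted change of −0.22 that was not called. Both fractions enter its difference. The median difference was −0.02 for the members and 0.19 for all genes. With TMM, which brings the median of all genes to 0.01, 6 members were lower (SLC25A38 and SLC25A48 among those that joined) and only SLC25A46 was higher, beside 10.3% and 2.06% of all genes. SLC25A12 and SLC25A13 differed by 0.13 ± 0.12 and 0.21 ± 0.12 and were not called, and nor were SLC25A5 (0.00 ± 0.15), SLC25A6 (−0.08), SLC25A3 (−0.19) and SLC25A11 (−0.33).

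Other mitochondrial genes moved further. Of 252 for proteins under 200 residues 167 were lower in AKAP1 null cells and none higher, with a median of −0.89. Of 357 for proteins over 400 residues 206 were higher and 6 lower, with a median of 0.74. The 366 for proteins of 200 to 400 residues had a median of 0.02, with 40 higher and 49 lower, and the 35 members of that length one of −0.08, with 3 lower and none higher. On the import route TIMM8B (−1.79), TIMM10 (−1.58), TIMM13 (−1.12) and TIMM9 (−0.71) were lower, and AGK (1.31) and TOMM70 (0.54) higher.

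**Figure D4:**
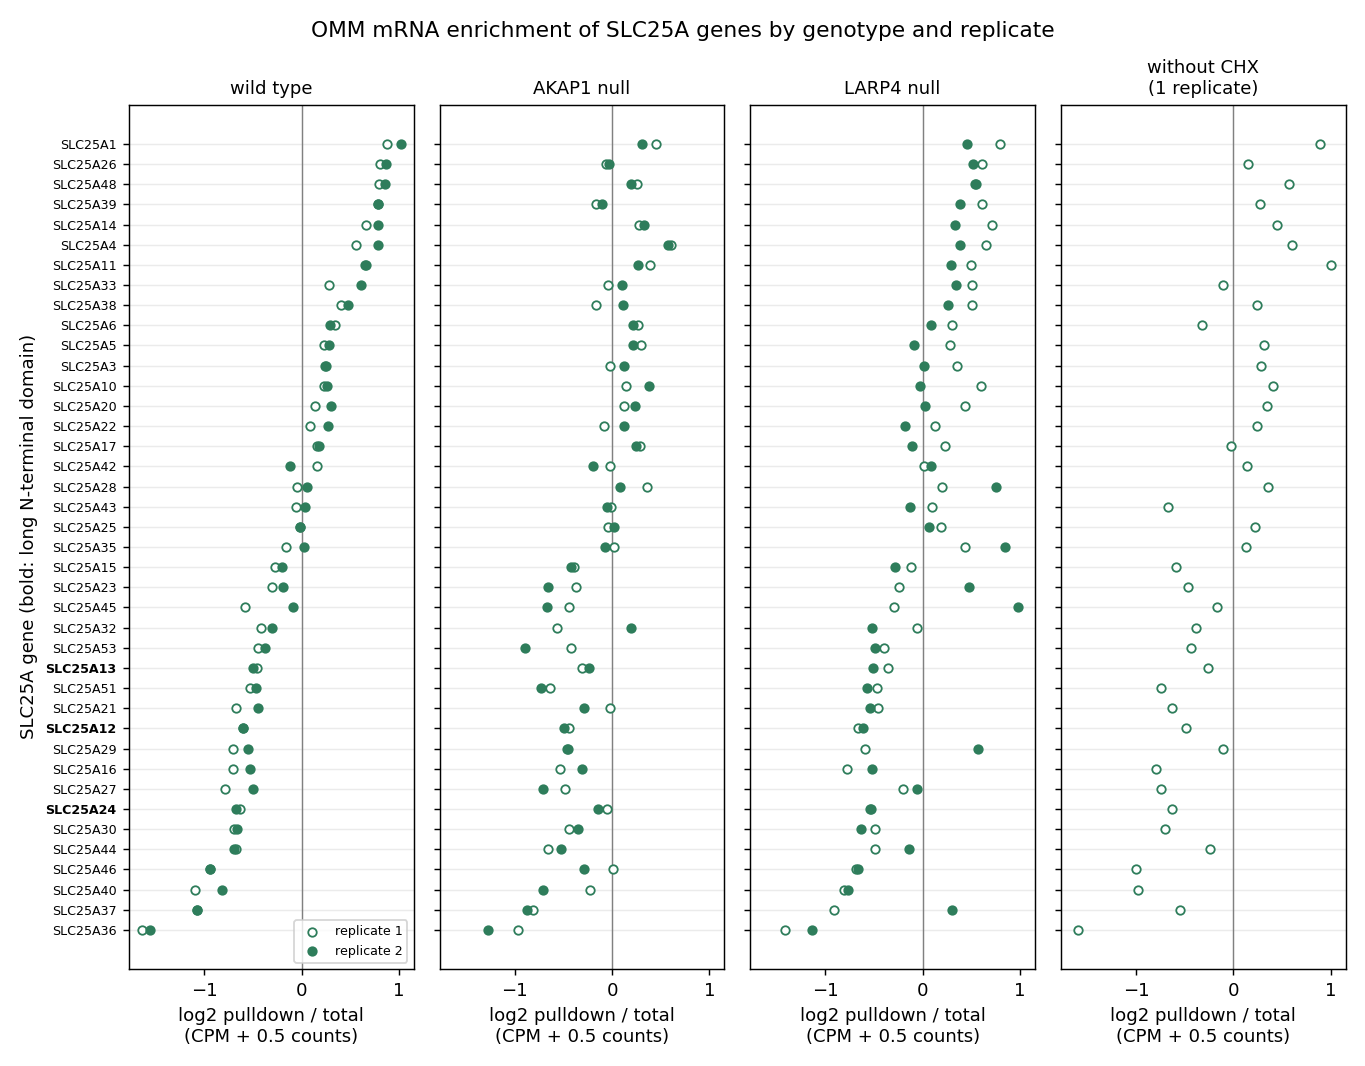
Log2 pulldown over total input from CPM with 0.5 counts added (x axis) for 40 of the 41 members in wild type, AKAP1 null, LARP4 null and cells without CHX, ordered by the fitted wild-type value, open circles for replicate 1 and filled for replicate 2. Fitted values run from −1.60 (SLC25A36) to 0.95 (SLC25A1) in wild type. They run from −1.13 to 0.59 in AKAP1 null and from −1.28 to 0.65 in LARP4 null cells. The quartiles of all genes tested, not drawn, were −0.68 and 0.22 in wild type. In AKAP1 null cells they were −0.43 and 0.18, and in LARP4 null cells −0.42 and 0.34. Several LARP4 null replicates lie far apart.

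LARP4 is a poly(A)-binding protein. In LARP4 null cells 12 members were enriched and 12 depleted, beside 22.8% and 30.0% of all genes. With TMM 13 were enriched and 10 depleted, beside 27.9% and 25.0% of all genes. The highest were SLC25A35, of unsettled substrate, at 0.65, SLC25A1 at 0.63 and SLC25A26 at 0.56, and the lowest SLC25A36 at −1.28, SLC25A40 at −0.79 and SLC25A46 at −0.68. SLC25A12, SLC25A13 and SLC25A24 were all depleted, at −0.64, −0.44 and −0.53. Of the members called in wild type, 10 of 11 enriched and 12 of 16 depleted were called the same way. The overlap of calls over all genes was not counted here either, so these counts show nothing particular to carriers.

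No member differed between LARP4 null and wild-type cells in edgeR or in DESeq2, and the lowest adjusted p in edgeR was 0.299. At an unadjusted p below 0.05, 5 members were higher and 1 lower in edgeR, where 16.4% of all genes passed that limit. But in DESeq2 1 was higher and 7 were lower, beside 11.1% of all genes. In edgeR 0.0% of all genes were called in either direction, while DESeq2 called 0.0144% higher and 3.28% lower. The replicates of LARP4 null cells lay apart: the difference between them had an SD of 0.44 over 41 members, against 0.13 in wild type and 0.22 in AKAP1 null cells. SLC25A45 was at −0.30 and 0.98, SLC25A37 at −0.91 and 0.30, and SLC25A29, a basic amino acid carrier, at −0.59 and 0.57. Without LARP4 null replicate 1, 9 members were called higher and 6 lower, beside 32.6% and 8.24% of all genes, and without replicate 2 none, beside 0.0217% and 0.671%. The largest differences with both replicates were 0.77 ± 0.32 for SLC25A37, 0.72 ± 0.22 for SLC25A35 and 0.69 ± 0.42 for SLC25A45, and the lowest −0.33 ± 0.15 for SLC25A1, −0.29 ± 0.13 for SLC25A39 and −0.29 ± 0.21 for SLC25A48. SLC25A24 was at 0.12 and turned to −0.09 with TMM, as the scale moved the median of all genes from 0.17 to −0.04.

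**Figure D5:**
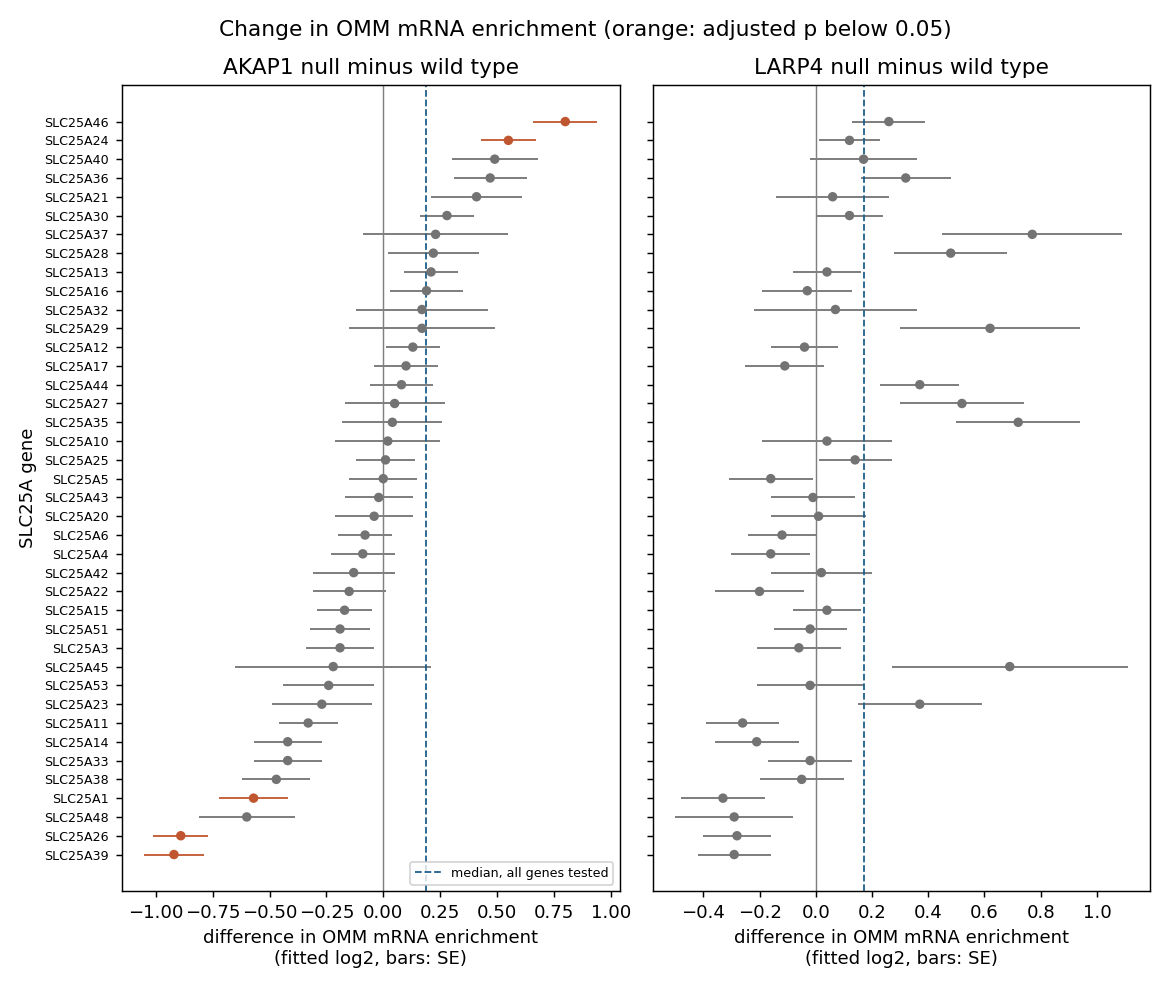
Fitted difference in log2 OMM mRNA enrichment between null and wild-type cells (x axis) for 40 of the 41 members, with bars of 1 SE, a dashed line at the median of all genes tested and orange for an adjusted p below 0.05. The 5 members called for AKAP1 lie at the ends, from −0.92 to −0.57 and at 0.55 and 0.80, and none is called for LARP4.

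Total mRNA of the carriers gave no call between genotypes. In AKAP1 null against wild-type total inputs the 41 members ranged from −0.46 (SLC25A26) to 0.46 (SLC25A45). None had an unadjusted p below 0.05 in edgeR or DESeq2, beside 3.5% and 4.31% of all genes, and 0.0% of 13977 genes were called in either direction. In LARP4 null cells the members ranged from −0.52 (SLC25A40) to 0.42. At an unadjusted p below 0.05, 1 was lower in edgeR and in DESeq2, beside 3.64% and 4.36% of all genes. None was called by either tool, and 0.00715% of all genes were called in each direction in edgeR.

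Without CHX there was 1 replicate and so no test. These cells also had a shorter treatment with biotin and light, per the study's methods. Their labels name no genotype or control gRNA. CHX, labelling time and any difference in cell line therefore cannot be told apart. The members had a median of −0.11, the same as all genes, while in the wild-type replicates with CHX the members had −0.06 and −0.02 and all genes −0.27 and −0.30. Of 41 members 31.7% lay above and 39.0% below both wild-type replicates, beside 59.5% and 27.1% of all genes, and the median difference of the members was −0.02. SLC25A26 had the lowest difference, 0.15 in these cells against a mean of 0.84 in wild type with CHX, then SLC25A43 (−0.67 against −0.01) and SLC25A6 (−0.32 against 0.32). SLC25A37 had the highest, −0.55 against −1.08. SLC25A1 (0.89), SLC25A36 (−1.60) and SLC25A24 (−0.63) were within 0.06 of their wild-type means.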

How the data were processed

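For ribosome profiling the authors removed rRNA and tRNA reads with Bowtie, aligned the rest to GRCh38, kept footprints of 27 to 36 nt, spread each over its central positions, left out ambiguous positions and deposited estimated counts, per coding sequence and over exons, with RPKM whose denominator is every read assigned to a transcript. RNA-seq read pairs were aligned with STAR, and the authors deposited counts per gene from featureCounts and values named FPKM, here a score because they are 10 times the FPKM that counts and lengths give. Entries for several genes (1079) stayed in totals but were not tested, and 3 to 7 lines of 1 broken RNA-seq entry per file were left out.

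Rounded counts were tested with edgeR 4.0.16 (quasi-likelihood, two-sided, R 4.3.3) over all genes, 12 libraries per assay in 1 fit, with a term per lysate, library totals as scale and Benjamini-Hochberg adjustment over the genes tested. Total inputs alone used TMM and no block. A call is an adjusted p below 0.05. Total input and pulldown come from the same lysate, per the paper, and their deviations from the group means correlated at 0.598 to 0.883. Alternatives were TMM, library totals for total inputs, DESeq2 1.42.0, a minimum of 10 and one 4 times the main minimum, footprints over all exons, no lysate term, leaving out replicates and, added after seeing the data, RPKM denominators as scale. On simulated data the test recovered 93% of genes changed by 1 on the log2 scale at the OMM (6728 genes) and 76.5% for AKAP1 null minus wild type (13856 genes), and of those changed by 0.5 it recovered 27% and 1%.

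Named genes are, per comparison, the 3 highest and 3 lowest members, SLC25A12, SLC25A13, SLC25A24, the 4 members with the highest RPKM, members called against most others where these are 5 or fewer, all called between genotypes, and lists of import genes and substrate classes. Values of 1 member and 1 sequence are not reported here. Others named for a class, a call or a replicate spread were chosen after their values were seen. Mitochondrial genes are 1060 symbols listed by the study. Members and lists were chosen with earlier results of these data known. Figures used Python 3.11.15 and matplotlib 3.10.9. SE come from the edgeR fit, which estimates dispersion over all 12 libraries of an assay and shares information between genes. They cover variation between these samples only and are not the spread between the 2 replicates of 1 group.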

Additional observations from a re-analysis of the deposited data

Results flagged for a closer look

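Enrichment of 5 members at the OMM differed between AKAP1 null and wild-type cells by the test of the difference itself. It was lower for SLC25A39 (−0.92), SLC25A26 (−0.89) and SLC25A1 (−0.57) and higher for SLC25A24 (0.55) and SLC25A46 (0.80), on the log2 scale. SLC25A39 kept its call when any single replicate was left out. SLC25A26 lost it without wild-type replicate 2 (adjusted p = 0.0667), and SLC25A46 kept it only without AKAP1 null replicate 2. SLC25A1 and SLC25A24 lost theirs whichever replicate was left out, and SLC25A24 also with TMM (0.38, adjusted p = 0.0958).

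Between locations, enrichment at the OMM was higher than at the ER for 9 members and lower for 2 (31.1% and 18.6% of all genes), and higher than in the cytosol for 3 and lower for 5 (16.6% and 39.7% of all genes). With TMM these became 2 and 3, and 5 and 0. SLC25A1 was among the higher ones in both comparisons, and with TMM it remained so at 0.85 and 0.79. Groups of 2 replicates are too small for a search for outlying samples.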

How the results depend on the processing

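Counts of members called depend on the scale. With TMM they were 12 enriched and 2 depleted at the OMM, 6 and 1 at the ER, 2 higher for OMM minus ER, 5 higher and 0 lower for OMM minus cytosol, 17 and 9 for wild-type mRNA, 9 and 8 for AKAP1 null mRNA, and 1 higher and 6 lower for AKAP1 null minus wild type. DESeq2 gave 11 and 1 (25.0% and 18.8% of all genes), 1 depleted at the ER (21.2%), 2 higher (13.7%), 0 lower (15.8%), 17 and 8 (29.1% and 26.6%), 8 and 7 (20.3% and 18.1%), and 1 and 5 (2.66% and 9.87%). With RPKM denominators 7 were depleted at the ER (55.1% of all genes) and 10 enriched in the cytosol (33.2%). On that scale 2 were higher for OMM minus ER (14.5%) and 0 higher for OMM minus cytosol (11.7%). With a minimum of 10, which tests more genes, 5 were enriched at the OMM (13.5% of all genes) and 5 at the ER (22.3%). At this minimum 1 was depleted in the cytosol (5.24%) and 4 were lower for OMM minus ER (19.8%). With the higher minimum, which tests fewer, 1 was enriched and 3 depleted at the OMM (21.1% and 55.3% of all genes). At the ER it gave 0 and 8 (16.9% and 77.1%). For OMM minus ER 0 were lower (17.5%), and for OMM minus cytosol 1 was higher and 3 lower (21.1% and 49.5%). Footprints over all exons gave 9 depleted at the OMM (52.7% of all genes) and 1 and 1 in the cytosol (3.99% and 5.43%). They also gave 4 lower for OMM minus ER (20.6%) and 8 lower for OMM minus cytosol (47.1%). Except where the alternative's construction shows it, the cause was not tested.

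Without the replicate block for lysates no member was called at the OMM (0 and 0), beside 514 and 1010 of 6728 genes. At the ER 4 were depleted, beside 3174 of 7381 genes. Between locations 0 were called in either direction, beside 507 and 837 of 6675 genes for OMM minus ER and 199 and 55 of 6465 for OMM minus cytosol. For AKAP1 null minus wild type 0 were called, beside 98 and 331 of 13856 genes. In wild type 10 were depleted (4199 genes), in AKAP1 null cells 1 and 6 were called (632 and 1566), and in LARP4 null cells 5 and 7 (1576 and 2091). Each of these counts over all genes was lower than with the block. In total inputs the genotypes share only replicate numbers (their deviations correlated at −0.067 to 0.34), and a replicate block gave 0 calls there as well.

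Leaving out 1 replicate leaves a lone sample in a group, so the median of the members relative to that of all genes is given. It was 0.41 to 0.44 at the OMM, 0.25 to 0.26 at the ER and 0.05 to 0.13 in the cytosol. For OMM minus ER it was 0.16 to 0.25 and for OMM minus cytosol 0.23 to 0.30. In mRNA it was 0.21 to 0.28 in wild type, 0.05 to 0.09 in AKAP1 null and 0.00 to 0.25 in LARP4 null cells. Against wild type it was −0.26 to −0.13 for AKAP1 null and −0.27 to −0.04 for LARP4 null cells. In total inputs it was −0.02 to 0.07 for AKAP1 null and −0.04 to 0.01 for LARP4 null cells.

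With TMM and with DESeq2, 3 of 22 members turned positive at the OMM and 19 of 25 at the ER. Among them at the OMM were SLC25A3 (0.31, 0.34) and SLC25A5 (0.24, 0.27). Over all exons the sign turned for SLC25A12 (−0.40) and SLC25A17 (−0.03). Among those at the ER were SLC25A11 (0.08, 0.05), SLC25A12 (0.13, 0.09), SLC25A24 (0.09, 0.05), SLC25A3 (0.10, 0.06), SLC25A46 (0.63, 0.60) and SLC25A6 (0.21, 0.18). Against the cytosol the sign turned over all exons for SLC25A12 (−0.56) and SLC25A17 (−0.10). Without CHX the median stayed at −0.11 with 1 count added. With proteins of 250 to 350 residues the mitochondrial list had a median of 0.03 at the OMM.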
